A study of Mus musculus with 6 samples.

Results

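Transcripts of 34 enzyme genes that carry glucose carbon through glycolysis and the tricarboxylic acid (TCA) cycle were compared in the mouse dentate gyrus (DG), the hippocampal subregion that holds the granule cells, after status epilepticus. The genes were chosen by function, 17 of glycolysis, including lactate dehydrogenase, and 17 of the pyruvate dehydrogenase complex and the TCA cycle. The rule used no measured value, although earlier results of these data were known when the genes were chosen. Probes of 32 of the 34 genes were found through the platform annotation, the brightest tested probe standing for each gene. A probe of 31 genes was above background on all arrays of at least 1 group and could be tested, among 11222 genes tested in all. No probe was assigned here to Hk2 or Gpi1, and Sucla2, which encodes a subunit of the ADP-forming succinyl-CoA ligase, was not above background on any array. Pyruvate kinase was listed under its current symbol Pkm in place of Pkm2. Eno1 was represented only by a probe annotated to Eno1b, a near-identical copy of the enolase gene. Which of the 2 genes this probe reads was not tested, so Eno1 itself may not have been measured.

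Glycolysis splits glucose into pyruvate in the cytosol and yields a small amount of ATP, and pyruvate is then either reduced to lactate or carried into mitochondria. There, pyruvate dehydrogenase feeds acetyl groups to the TCA cycle, which supplies electrons to the respiratory chain. Neurons rely heavily on oxidative metabolism to restore ion gradients, whereas astrocytes are known for a high rate of glycolysis and for release of lactate. Several glycolytic enzymes exist as isozymes that differ between these cell types in the brain, such as the astrocyte-enriched aldolase C and the neuron-specific enolase 2.

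The KA-SE group consisted of 3 male C57/Black6J mice aged 6-8 weeks in which repeated intraperitoneal low doses of kainic acid, a glutamate receptor agonist, had induced status epilepticus (SE). The saline group consisted of 3 males of the same strain and age that received saline injections. The labels name no transgene or mutation. Per the study's methods only KA-treated mice with sustained severe seizures were included. Total RNA of the right DG, micro-dissected 72 h after injection, was hybridized to bead arrays, 1 array per mouse. All values below are log2 signals after background correction and quantile normalization, unless a fold is named, and signals of different probes cannot be compared with each other.

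Between 48.1% and 50.3% of the 45281 probes on each array were above background, at a detection p-value under 0.05. Precision is limited by the 3 arrays per group. Of the 21226 probes tested across the array, 45 (0.212%) were higher and 4 (0.0188%) were lower in KA-SE at a limma adjusted p under 0.05, together 0.231%. The granule cell markers Prox1, Dock10, C1ql2 and Pdzd2 were detected on all 6 arrays, while Calb1, Tdo2 and Neurod1 were not tested and no probe was assigned to Dsp. These 4 granule cell markers had a median log2 change of 0.05, with 3 values above and 1 below 0, and none passed. Markers of some other cell types moved with the groups. All 8 astrocyte markers had higher means in KA-SE, although the log2 change of S100b was only 0.0083. Their summed linear signal was 35200 to 37600 in KA-SE against 23400 to 25000 in saline. This sum includes Gfap, the only astrocyte marker that passed the test (log2 change 1.89, limma adjusted p = 0.00057). All 7 tested markers of microglia and macrophages also had higher means (summed signal 4320 to 6800 in KA-SE, 3070 to 3260 in saline), although none passed. For markers of CA1 and CA3 pyramidal cells, 6 of 8 had lower means in KA-SE, with summed signals of 7570 to 8770 in KA-SE and 8910 to 10200 in saline. Median log2 changes were -0.04 for 5 neuronal markers, 0.14 for 6 oligodendrocyte markers and 0.24 for 2 erythrocyte markers, and no marker of these lists passed. The summed signal of the choroid plexus markers was 10600 to 13600 in KA-SE and ranged from 626 to 31700 in saline. This sum includes Ttr, at a log2 signal of 14.85 on saline replicate 1 and 7.82 on saline replicate 2. The median log2 change of the 5 tested choroid plexus markers was 0.03, and none passed. The part of any of these marker lists in the enzyme gene values was not tested. In bulk tissue, fewer cells of a type and less RNA per cell cannot be told apart.

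None of the enzyme genes passed the test. At an adjusted p under 0.05, 0 of 31 genes were called in limma, where 0.312% of all genes tested were called (0.294% higher and 0.0178% lower in KA-SE), so that this count is near the background. The lowest adjusted p was 0.624, for Idh2. At an unadjusted p under 0.05 there were also 0 of 31 genes, against 8.45% of all genes tested (5.85% higher, 2.59% lower). Idh2, at an unadjusted p of 0.0528, fell under 0.05 in 6 of the alternatives, and without KA-SE replicate 3 Pkm did so too. For every one of the 31 genes, the ranges of the KA-SE and the saline arrays overlapped, while the groups did not overlap for 14.1% of all genes tested (8.56% higher, 5.49% lower). Enzyme genes are bright, and among the 2616 genes with a mean log2 signal between 9.36 and 12.13, the interquartile range of the enzyme genes, the groups did not overlap for 13.2% (345 genes) and 4.85% had an unadjusted p under 0.05.

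Changes were small in both directions. The median log2 change over the 15 tested glycolysis genes was -0.02, with 9 values below and 6 above 0, but 6 below and 9 above without KA-SE replicate 2. The 16 tested genes of pyruvate dehydrogenase and the TCA cycle had a median of -0.03, with 12 values below and 4 above 0, but 7 below and 9 above without KA-SE replicate 2. Over all genes tested the median was -0.0011, with 50.3% of values below 0. A change of less than 0.25 on the log2 scale was found for 30 of the 31 genes (96.8%), compared with 86% of all genes tested and 92.6% of those in the same signal range.

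**Figure D1:**
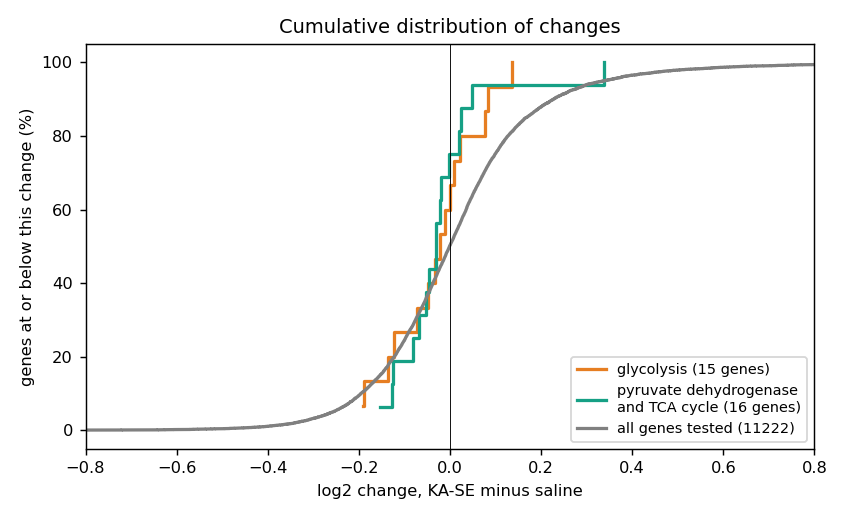
Cumulative share of genes (vertical axis, percent) at or below a given log2 change, KA-SE minus saline (horizontal axis), for 15 glycolysis genes, 16 genes of pyruvate dehydrogenase and the TCA cycle, and all 11222 genes tested, drawn from -0.8 to 0.8. Both enzyme curves rise steeply around 0, with medians of -0.02 and -0.03.

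The interval of each difference gives the changes compatible with these arrays, and is no detection limit of the adjusted test. All 31 intervals (95%, limma) included 0. For 28 genes they lay entirely within 0.5 log2 units of 0, that is, within a 1.41-fold change in either direction. The intervals of Pgam1, Pdhb and Idh2 were wider or further from 0, and the outermost bounds were -0.61 for Pgam1 and 0.68 for Idh2. Moderated standard errors ranged from 0.107 to 0.213.

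**Figure D2:**
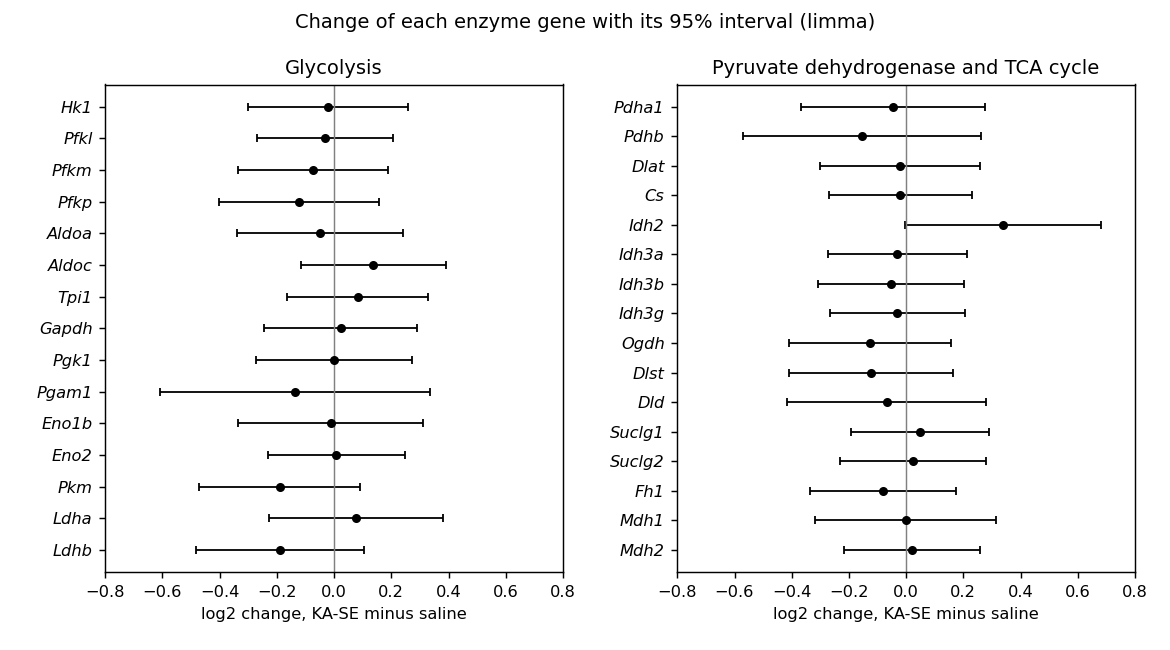
Log2 change of each enzyme gene, KA-SE minus saline (points), with its 95% interval from limma (lines), n = 3 arrays per group. Glycolysis genes are on the left and genes of pyruvate dehydrogenase and the TCA cycle on the right, in pathway order from top to bottom, and every interval includes 0.

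The upper part of glycolysis traps glucose in the cell and commits it to breakdown. Hk1, the mitochondria-bound hexokinase that phosphorylates glucose in brain, had signals of 9.36, 9.35 and 9.12 in KA-SE and of 9.32, 9.44 and 9.14 in saline (log2 change -0.02 ± 0.126, SE). The lowest array of each group was replicate 3, and the groups overlapped almost entirely. A dimmer probe of Hk1 gave 0.22. The 3 subunit genes of phosphofructokinase, the main control point of the pathway, had negative values that did not pass. These were -0.03 for the liver type Pfkl, -0.07 for the muscle type Pfkm and -0.12 for the platelet type Pfkp. Dimmer tested probes gave 0.15 for Pfkl, 0.17 and -0.04 for Pfkp, and -0.0071 and -0.06 for Pfkm.

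Aldolase cleaves fructose bisphosphate into 2 triose phosphates. The gene of the astrocyte-enriched isozyme, Aldoc, had the highest log2 change among glycolysis genes. Its signals were 13.39, 13.49 and 13.27 in KA-SE against 13.33, 13.25 and 13.16 in saline. With 3 mice per group, the change was 0.14 ± 0.114 log2 units (SE, limma adjusted p = 0.884), with KA-SE replicate 3 below saline replicate 1. Its dimmer probe gave 0.10. Aldoa, which encodes the more widely expressed isozyme, had 13.30, 12.95 and 13.16 in KA-SE and 13.08, 13.13 and 13.34 in saline, with a log2 change of -0.05. The median log2 change of the astrocyte markers was 0.41, and the part of astrocytes in the Aldoc value was not tested. Tpi1, the triose phosphate isomerase gene, had values of 0.08, 0.07 and 0.03 by its 3 tested probes.

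The later steps of glycolysis yield ATP. Gapdh, whose product oxidizes glyceraldehyde phosphate and which is often used as a reference transcript, had signals of 13.28, 13.05 and 13.26 in KA-SE and of 13.27, 13.04 and 13.21 in saline. Its log2 change was 0.02, with an interval from -0.24 to 0.29. Pgk1, the phosphoglycerate kinase gene, had means of 11.35 in both groups. Its dimmer tested probe gave a log2 change of -0.10. The enolase gene Eno2, whose product is a common neuronal marker, had 13.38 ± 0.0927 in KA-SE and 13.37 ± 0.0264 in saline (SD, n = 3 each). For Eno1b the change was -0.01.

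Phosphoglycerate mutase and pyruvate kinase act before and after enolase. Pgam1, which encodes phosphoglycerate mutase, had 8.99, 8.37 and 9.21 in KA-SE and 9.17, 8.67 and 9.13 in saline, so that replicate 2 was lowest in both groups. Its log2 change was -0.14 ± 0.213 (adjusted p = 0.959), but 0.11 without KA-SE replicate 2, and its dimmer tested probe gave 0.17. Pkm, which encodes the pyruvate kinase of brain, had 12.67, 12.61 and 12.95 in KA-SE, against 12.88, 12.86 and 13.06 in saline. Its log2 change was the lowest of the glycolysis genes (-0.19 ± 0.128, limma adjusted p = 0.8), with 2 of the KA-SE arrays below all saline arrays and KA-SE replicate 3 above 2 of them.

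Lactate dehydrogenase links glycolysis to lactate exchange, and its A subunit favours lactate formation, whereas the B subunit favours lactate use. Ldha had 12.02, 11.55 and 11.84 in KA-SE and 11.75, 11.63 and 11.79 in saline, a log2 change of 0.08 ± 0.138. KA-SE arrays held both the highest and the lowest of its 6 signals. Ldhb had 5.36, 5.63 and 5.46 in KA-SE and 5.63, 5.50 and 5.88 in saline (-0.19 ± 0.133, limma adjusted p = 0.825). The probe of Ldhb was annotated to a cDNA clone and not to a curated transcript, and it was dim, and it is the only Ldhb probe found.

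**Figure D3:**
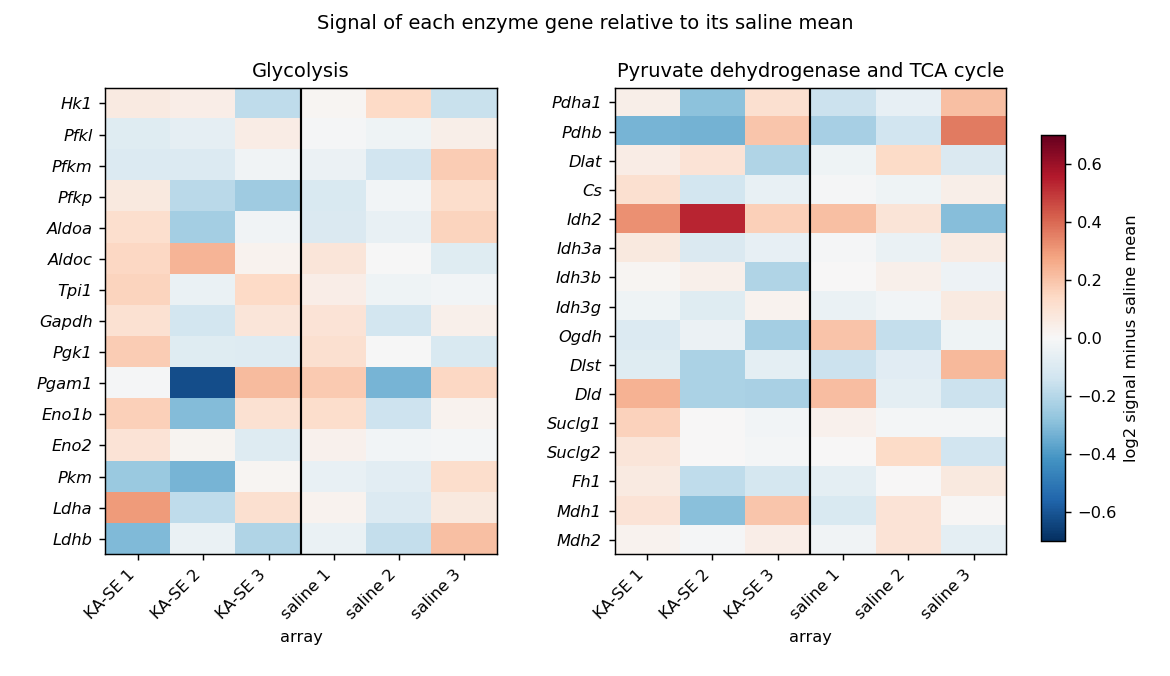
Log2 signal of each enzyme gene on each array minus the mean of its 3 saline arrays (colour scale), KA-SE arrays left and saline arrays right of the black line. Pgam1 on KA-SE replicate 2 (-0.62) and Idh2 on KA-SE replicate 2 (0.53) are the most extreme cells, and no row separates the groups.

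Entry of pyruvate into the TCA cycle was represented by Pdha1 and Pdhb, which encode the E1 subunits of pyruvate dehydrogenase, and Dlat, which encodes its E2 component. Pdhb had 9.42, 9.41 and 9.94 in KA-SE and 9.51, 9.61 and 10.11 in saline. Replicate 3 was highest in both groups, and the log2 change of -0.15 ± 0.188 (limma adjusted p = 0.94) was 0.03 without saline replicate 3. The other tested probes of Pdhb gave -0.15 and -0.12. The change was -0.05 for Pdha1 and -0.02 for Dlat. Cs, the citrate synthase gene, had 10.96 ± 0.123 in KA-SE and 10.98 ± 0.0348 in saline (SD, n = 3 each).

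Isocitrate dehydrogenase exists in an NAD-dependent form, which serves the cycle proper, and in the mitochondrial NADP-dependent form IDH2, which supplies NADPH for antioxidant defence. Idh2 had the largest log2 change of all 31 genes. Its signals were 8.20, 8.41 and 8.05 in KA-SE against 8.09, 7.97 and 7.58 in saline. The means differed 1.26-fold, or by 0.34 ± 0.155 log2 units with 3 mice per group (limma adjusted p = 0.624, unadjusted p = 0.0528), with an interval from -0.0049 to 0.68. Saline replicate 1 lay above KA-SE replicate 3, and the value was 0.19 without saline replicate 3. The NAD-dependent subunit genes differed less, with log2 changes of -0.03 for Idh3a, -0.05 for Idh3b and -0.03 for Idh3g. Their dimmer tested probes gave 0.11 for Idh3a, -0.07 for Idh3b and -0.04 for Idh3g. Within each array, the difference between Idh2 and Idh3a was higher on all 3 KA-SE arrays than on any saline array, with group means 0.37 apart. The groups all but touched, at 0.226 on KA-SE replicate 3 and 0.219 on saline replicate 1, relative to the saline mean. The exact two-sided permutation p was 0.1, which is the smallest that 3 against 3 arrays allow, and 0.7 after Benjamini-Hochberg adjustment over the 7 isozyme pairs compared. In the other 6 pairs, namely Pfkl and Pfkp with Pfkm, Aldoc with Aldoa, Eno1b with Eno2, Ldha with Ldhb and Mdh1 with Mdh2, the groups overlapped. Their differences changed by -0.05 to 0.27, with exact permutation p-values from 0.3 to 0.9.

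The 2-oxoglutarate dehydrogenase complex, a regulated step of the cycle, was represented by Ogdh (E1), Dlst (E2) and Dld (E3). Ogdh had 10.10, 10.15 and 9.95 in KA-SE and 10.39, 10.03 and 10.16 in saline (-0.13 ± 0.128, limma adjusted p = 0.922). Dlst had 10.24, 10.10 and 10.26 in KA-SE and 10.18, 10.25 and 10.55 in saline (-0.12 ± 0.129, limma adjusted p = 0.925). For both genes the highest array was a saline array, replicate 1 for Ogdh and replicate 3 for Dlst, and the remaining arrays intermingled. Ogdh was at -0.03 without saline replicate 1, and Dlst was at -0.0097 without saline replicate 3. Other tested probes of Dlst gave -0.11, 0.05 and 0.05. Dld, whose product is shared with pyruvate dehydrogenase, had a log2 change of -0.07. By the brightest probe of each gene, the remaining steps of the cycle had values close to 0. These were 0.05 for Suclg1 and 0.02 for Suclg2, subunit genes of succinyl-CoA ligase, and -0.08 for the fumarase gene Fh1. The cytosolic malate dehydrogenase gene Mdh1 had -0.0018 and the mitochondrial Mdh2 had 0.02. Dimmer tested probes gave 0.20 for Mdh1, -0.06 for Suclg1 and -0.03 for Fh1.

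**Figure D4:**
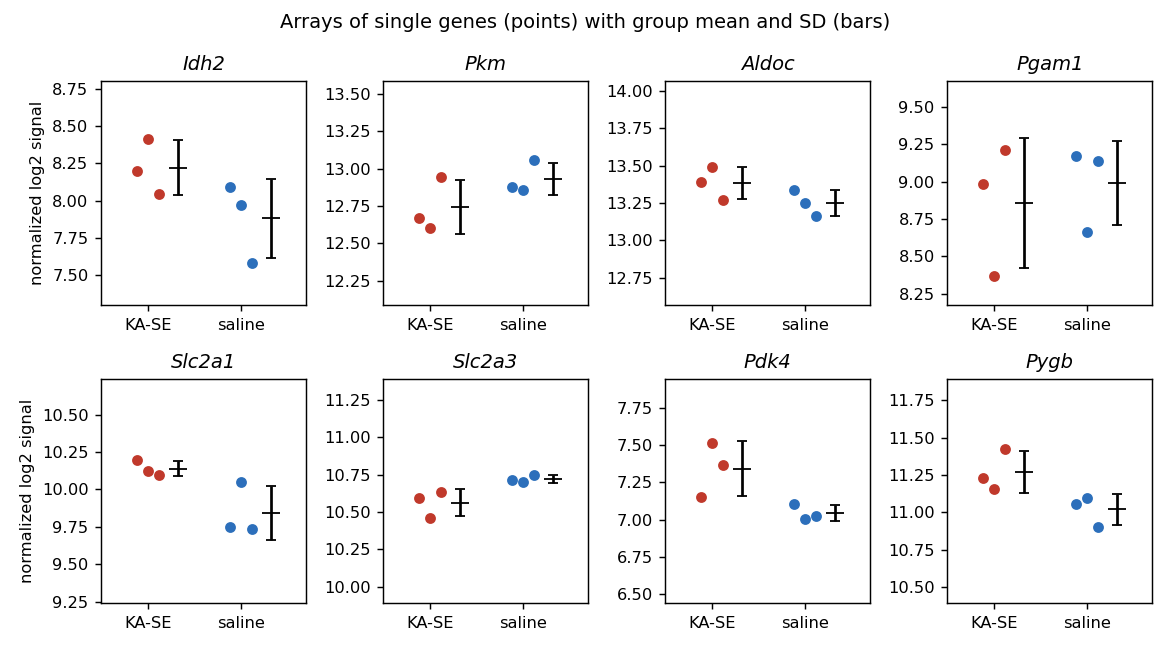
Normalized log2 signal (vertical axis, a span of 1.5 in each panel) of single genes on the 3 KA-SE arrays (red) and the 3 saline arrays (blue), with the group mean and SD beside the points. The upper row shows Idh2, Pkm, Aldoc and Pgam1, whose groups overlap, and the lower row shows Slc2a1, Slc2a3, Pdk4 and Pygb, whose groups do not.

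The enzyme genes also differed between arrays of the same group. Relative to the saline mean, the glycolysis genes had medians of 0.09, -0.10 and 0.01 in KA-SE (replicates 1 to 3) and of 0.03, -0.05 and 0.04 in saline (replicates 1 to 3). On KA-SE replicate 2, 12 of the 15 genes were below the saline mean of the gene, and on saline replicate 2, 14 were. Of all genes tested, 47.7% were below it on KA-SE replicate 2 and 49.6% on saline replicate 2. Saline replicate 2 is itself part of the saline mean, so the counts of the 2 arrays are not directly comparable. For pyruvate dehydrogenase and TCA cycle genes the medians were 0.06, -0.09 and -0.04 on the KA-SE arrays, while on saline arrays they were -0.02, -0.02 and -0.0046. The same medians over all genes tested stayed between -0.016 and 0.025, but quantile normalization by its design holds them near 0. For both pathways, the range of these medians within KA-SE exceeded the median difference between the groups. Single arrays vary more than group means, so this comparison cannot tell whether the groups differ. Without KA-SE replicate 2 the median log2 changes were 0.04 for glycolysis and 0.0073 for pyruvate dehydrogenase and the TCA cycle.

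**Figure D5:**
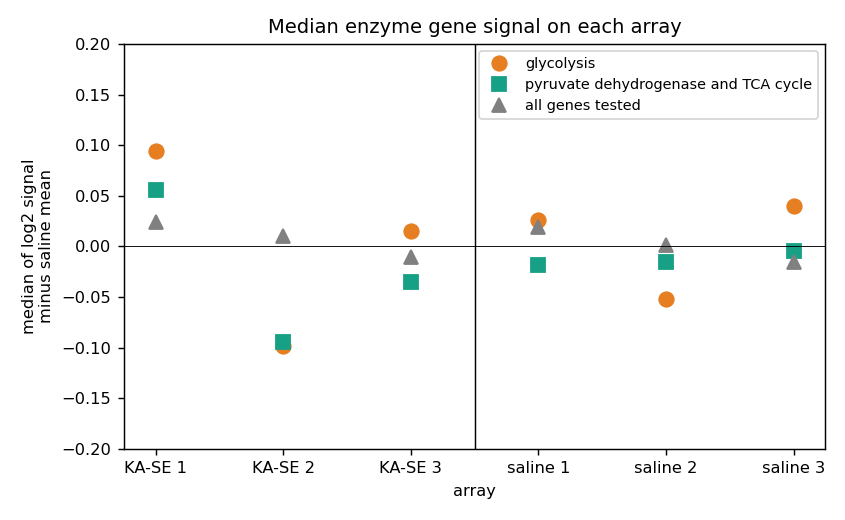
Median, over the genes of a list, of the log2 signal minus the saline mean of each gene (vertical axis) on each array (horizontal axis). KA-SE arrays are left and saline arrays right of the line, and glycolysis genes lie between -0.10 and 0.09.

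Dimmer probes of the same genes were also tested. Of the 62 probes of the 32 genes, 53 were tested, and the groups overlapped for all 53. Of 16 genes with several tested probes, 9 had values of both signs among their probes. The log2 changes of the 22 tested probes that were not the brightest of their gene ranged from -0.15 to 0.22, with a lowest limma adjusted p of 0.784.

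Further genes of the same metabolism were examined for comparison, 84 in number, of which 54 were tested. They comprise transporters, other isozymes, regulators, shuttles and the branches into glycogen and the pentose phosphate pathway. None passed the test in either direction, the lowest adjusted p was 0.547, and the median log2 change was 0.01. The groups did not overlap for 6 of 54 genes (11.1%), against 14.1% of all genes tested, with 5 higher and 1 lower in KA-SE. At an unadjusted p under 0.05 (limma) there were 2 of 54 genes (3.7%), against 8.45% of all genes tested.

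Among glucose transporters, Slc2a1 and Slc2a3 had values of opposite sign. The other tested genes of this family, Slc2a6, Slc2a8 and Slc2a13, had log2 changes of -0.0016, 0.04 and -0.12, and their groups overlapped. Slc2a1, which encodes GLUT1 of the blood-brain barrier and astrocytes, had 10.19, 10.13 and 10.10 in KA-SE against 9.75, 10.05 and 9.73 in saline. Its log2 change was 0.30 ± 0.123 (1.23-fold, limma adjusted p = 0.55, unadjusted p = 0.0358). All KA-SE arrays were above all saline arrays, although saline replicate 2 lay close to them. Slc2a3, which encodes the neuronal GLUT3 and was singled out after its values were seen, had 10.59, 10.46 and 10.63 in KA-SE against 10.71, 10.70 and 10.75 in saline (-0.16 ± 0.108, limma adjusted p = 0.809). All its KA-SE arrays were below all saline arrays. Endothelial markers, which mark a site of GLUT1 expression, had a median log2 change of 0.22, with a summed signal of 1410 to 2010 in KA-SE and 1250 to 1680 in saline. Their part in the Slc2a1 value was not tested. Bsg, the chaperone of lactate transporters, had a log2 change of 0.24 ± 0.116 (limma adjusted p = 0.644), without overlap of the groups. Its probe was dim, with means of 5.25 in KA-SE and 5.01 in saline.

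Pdk4, a kinase gene whose product inactivates pyruvate dehydrogenase, had the smallest p of these genes. Its signals were 7.15, 7.51 and 7.36 in KA-SE against 7.10, 7.00 and 7.02 in saline (1.23-fold, log2 change 0.30 ± 0.123, limma adjusted p = 0.547, unadjusted p = 0.0352). KA-SE replicate 1 lay only just above saline replicate 1. The related kinase genes Pdk1, Pdk2 and Pdk3 had log2 changes of -0.02, -0.08 and 0.08. Aco1, the cytosolic aconitase gene, had -0.20 ± 0.128, and the succinate dehydrogenase subunit genes Sdhb, Sdhc and Sdhd had 0.0011, 0.09 and 0.06.

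Of the glycogen genes, 3 of the 6 tested had values above 0 and 3 below. Pygb, the brain glycogen phosphorylase gene, had 11.23, 11.15 and 11.42 in KA-SE against 11.06, 11.10 and 10.90 in saline (0.25 ± 0.12, limma adjusted p = 0.653), without overlap of the groups. Pygm, which encodes the muscle isozyme also found in astrocytes, had 5.66, 5.43 and 5.47 in KA-SE and 6.03, 5.51 and 5.84 in saline (-0.27 ± 0.146, limma adjusted p = 0.723). Its probe was dim, and its groups overlapped. In the pentose phosphate pathway, which supplies NADPH and ribose, 2 of 6 tested genes had values above 0. Taldo1, the transaldolase gene, had 11.42, 11.37 and 11.53 in KA-SE against 11.23, 11.23 and 11.31 in saline (0.19 ± 0.108, limma adjusted p = 0.747), with all KA-SE arrays above all saline arrays. Rpe, which encodes ribulose-phosphate epimerase, had -0.19 ± 0.126 (limma adjusted p = 0.793).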

How the data were processed

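Bead arrays (Illumina MouseWG-6) of 3 KA-SE and 3 saline mice were used. The authors read the arrays in GenomeStudio and deposited linear probe intensity values without background subtraction, with a detection p-value for each probe on each array. The authors' deposited normalized values, treated here as a score because their log base is not given in the sources used here, served as an alternative. KA-SE replicates 2 and 3 carried an extra digit in the names of their intensity columns and were assigned by the trailing replicate number.

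Intensities were background-corrected with normexp (negative controls inferred from the detection p-values, offset 16), quantile normalized and log2 transformed with neqc in limma 3.58.1 under R 4.3.3. A probe was tested if all 3 arrays of either group had a detection p-value below 0.05 (21226 of 45281 probes). The test was a two-sided moderated linear model, with p-values adjusted over every tested probe by the Benjamini-Hochberg method and a threshold of 0.05. Of all probes, 34885 had 1 gene listed, 18 had several and 10378 had none. Isozyme pairs were compared by an exact permutation test of the difference within arrays, and 2 of the 9 pairs set out, Hk2 with Hk1 and Suclg2 with Sucla2, had no tested probe for a gene. The fit was tested on simulated data. No sequences of probes were used.

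The members and gene lists were chosen with earlier results of these data known. Values on every array are given for members that passed, had an unadjusted p under 0.05 or did not overlap, and for the 4 members of each pathway with the largest absolute change. Of the other pathway genes, up to 8 with the smallest p are named. Further members are shown for their place in the pathway. Alternatives covered background correction, scaling, the authors' values, the filter, array weights, the probe of a gene, the replicate number as a block, the threshold and omission of each array.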

Additional observations from a re-analysis of the deposited data

How the results depend on the processing

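No enzyme gene passed the adjusted threshold in any of the 14 alternatives on the log2 scale, nor with the authors' normalized values. Over those 14, the sign was kept in all for 7 of the 31 genes (Aldoc, Pkm, Ldhb, Idh2, Ogdh, Dlst and Fh1) and changed in at least 1 for 24, with a lowest adjusted p of 0.39 for Idh2. The sizes of those 7 varied, with values nearest to 0 of 0.03 for Aldoc, -0.12 for Pkm, -0.08 for Ldhb, 0.19 for Idh2, -0.03 for Ogdh, -0.0097 for Dlst and -0.03 for Fh1. Idh2 had an unadjusted p under 0.05 with offset 50, without background correction, with array weights, with the replicate block, without KA-SE replicate 3 and without saline replicate 1. Pgam1 was 0.11 without KA-SE replicate 2 and 0.015 as a mean over its probes, and ranged from -0.31 to 0.11 when single arrays were left out. Pdhb was 0.028 without saline replicate 3, with a range of -0.33 to 0.028. When arrays were scaled to a common median instead, the median log2 change was -0.14 for glycolysis and -0.15 for the TCA cycle, while that of all genes was -0.10, and 14 of 15 and 15 of 16 genes had values below 0. Leaving out single arrays, the medians ranged from -0.06 to 0.04 for glycolysis and from -0.08 to 0.0073 for the TCA cycle. The counts over all probes varied more. The 45 higher probes became 8 with the authors' values, 0 without the filter on dim probes (3000 probes had an unadjusted p under 0.05 there), 83 with array weights and 445 at an unadjusted p under 0.01, and from 4 to 76 without single arrays, 76 being without KA-SE replicate 1. The 4 lower probes became 15 with this scaling to the median, 1 with the authors' values, 0 without the filter and 135 at an unadjusted p under 0.01, and from 0 to 3 without single arrays. The causes were not tested. Samples of the same replicate number came from separate mice, and their deviations correlated at 0.022, 0.18 and 0.24. For every array except KA-SE replicate 1, the best match in the other group was the array of the same number. Whether the numbers mark a shared processing step was not tested. With the replicate number as a block, 28 probes were higher and 0 enzyme genes passed.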
